A study of Homo sapiens with 9 samples.

Results

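The genes described here are 10 transcription factors and partners of the bone and cartilage lineages: RUNX1, RUNX2, RUNX3, CBFB, SOX9, SOX5, SP7, MSX1, MSX2 and DLX5. They were taken by symbol from the 60603 genes of a single count table. SP7 stands there under a clone-based name, AC073611.1, and was matched by its Ensembl identifier. Of the 10 genes, 8 passed the filter on low counts and entered the test, and RUNX1 and SP7 did not pass it. RNA was measured by bulk sequencing in TC32 cells, a line established from an Ewing sarcoma, which carry EWS::FLI1, the fusion of EWSR1 and FLI1 that drives this tumour. All 9 libraries were labelled genotype WT, batch 1 and 30 h, with 3 biological replicates in each of 3 groups. The siEF cells received an siRNA that spans the breakpoint of the fusion, the siNEG cells a nonspecific siRNA, and the Media cells no siRNA. A single cell line was used, so the values describe TC32 after transient silencing and no other tumour.

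RUNX proteins bind DNA through the Runt domain and need CBFB, a partner that does not bind DNA itself, for stable binding. RUNX2 and SP7 are the master factors of the osteoblast, the cell that makes bone. SOX9, together with SOX5 and SOX6, directs cartilage formation, and the homeobox factors MSX1, MSX2 and DLX5 act upstream of RUNX2 in the skull, the limb and the neural crest. EWS::FLI1 activates genes through tandem repeats of GGAA and also lowers many genes of the mesenchymal lineages, and in Ewing sarcoma it is known to bind RUNX2 protein.

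Libraries held between 20727706 and 33134581 expected counts, and 16093 genes were tested. Here and below, a level with ± is the mean and SD of 3 replicate libraries (n = 3), and SE is the standard error of a fitted log2 fold change. FLI1, a partner gene of the targeted fusion, was at 37.75 ± 2.0 in siEF and 48.4 ± 0.32 in siNEG, in CPM, the count scaled to library size. This was a log2 change of -0.35 (SE 0.06, adjusted P = 2.88e-05). The gene count does not isolate the fusion transcript that the siRNA targets. The study checked the silencing by qPCR and reported a 3-cycle change in expression. The summed level of 7 Ewing sarcoma markers was between 445 and 461 CPM in siEF, between 799 and 811 CPM in siNEG and between 940 and 997 CPM in Media, and 5 of the 7 fell in siEF. The 7 blood cell markers together reached at most 2.30 CPM in any library, with CD3E and HBB at 0 counts throughout. Of these 7, 2 were tested, and ITGAL, which passed the filter only through siEF, rose from 0.176 to 0.942 CPM on average, a call that was lost without siEF replicate 2, without siNEG replicate 2 and in a test against the cut-off itself (edgeR's glmTreat). The 4 defining osteoblast markers, SP7 among them, reached at most 0.147 CPM and the 4 defining chondrocyte markers at most 1.27 CPM. The part of these markers in the results on the skeletal factors was not tested.

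Silencing of the fusion moved the skeletal factors in both directions. Against siNEG, SOX9 rose 14.8-fold, RUNX2 4.57-fold, MSX2 4.27-fold and SOX5 3.71-fold, while DLX5 was 7.34-fold lower. RUNX3, CBFB and MSX1 were not called, where a called gene has an adjusted P under 0.01 in edgeR's quasi-likelihood test and a log2 fold change beyond 1. Thus 4 of the 8 tested genes rose and 1 fell, beside 17.1% of all tested genes called higher in siEF, 11.7% called lower and 28.8% called in all. In bulk RNA, fewer cells that express a gene and less of its RNA per cell cannot be told apart.

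**Figure D1:**
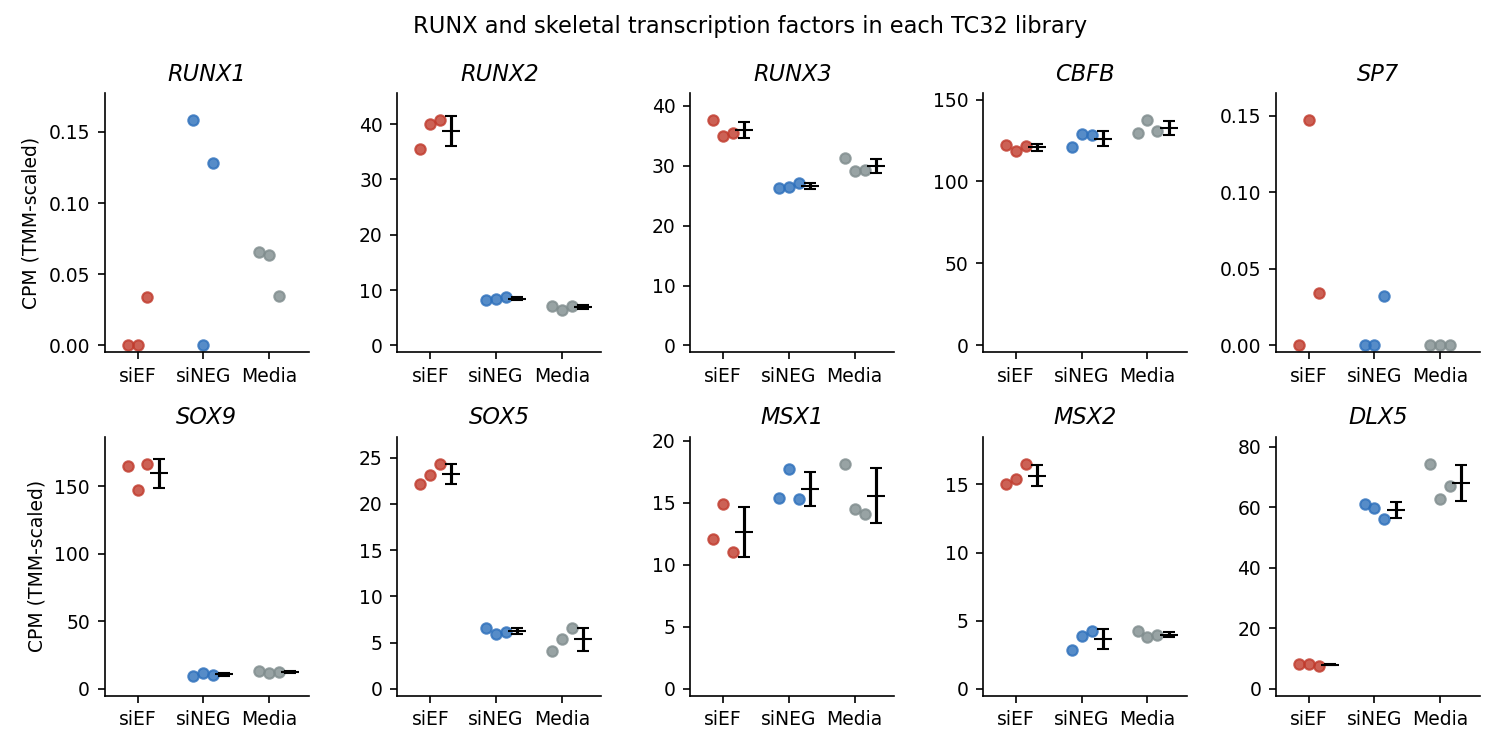
Level of each gene in every library, in CPM on TMM-scaled library sizes, with a linear axis of its own for each gene. Points are libraries (siEF red, siNEG blue, Media grey), and black bars give the mean ± SD of 3 libraries for the 8 genes that were tested. SOX9, RUNX2, SOX5 and MSX2 lie higher and DLX5 lower in the 3 siEF libraries than in all 6 controls.

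RUNX2 (ENSG00000124813.23) lies on chromosome 6 of GRCh38 from 45328157 to 45664349, on the plus strand. It had 984, 817 and 1186 counts in siEF replicates 1, 2 and 3, against 259, 287 and 273 with the nonspecific siRNA and 219, 204 and 202 in Media. Every siEF library was far above every control library, and siNEG lay slightly above Media without overlap. Scaled for depth, RUNX2 was at 38.7 ± 2.78 CPM in siEF, 8.46 ± 0.28 CPM in siNEG and 6.89 ± 0.37 CPM in Media. Its log2 fold change against siNEG was 2.19 (SE 0.08, adjusted P = 2.45e-13), the place 1112 from the top among the 16093 genes ranked by fold change. Per length, RUNX2 stood at the 58.4th percentile of the tested genes in siEF and at the 31.6th in siNEG.

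RUNX3 (ENSG00000020633.18, chromosome 1, 24899511 to 24965121, minus strand) is known from T cells, neurons and the maturing cartilage. It had 1039, 712 and 1036 counts in siEF, 829, 900 and 848 in siNEG and 959, 920 and 840 in Media. The raw counts overlap, and the lowest is that of siEF replicate 2, the shallowest library. After scaling for depth, the 3 siEF libraries lay between 34.9 and 37.5 CPM and the 3 siNEG libraries between 26.2 and 27.2 CPM, with no overlap. The log2 change of 0.43 (SE 0.06, adjusted P = 5.24e-06) passed the P threshold and fell short of the fold cut-off. Groups without overlap were common, at 76.9% of all tested genes, and 65.4% had an adjusted P under 0.01 at any fold.

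RUNX1, the factor of blood stem cells (ENSG00000159216.18, chromosome 21, 34787801 to 36004667, minus strand), was at the limit of detection. It had 0, 0 and 1 counts in siEF, 5, 0 and 4 in siNEG and 2, 2 and 1 in Media. Summed over 3 libraries this was 1 count in siEF (exact Poisson 95% interval 0.0253 to 5.57), 9 in siNEG (4.12 to 17.1) and 5 in Media (1.62 to 11.7). The intervals cover counting error only. RUNX1 did not enter the test, and its siEF libraries overlapped those of siNEG. The highest siEF library (0.0343 CPM) and the lowest Media library (0.0349 CPM) held 1 count each, so these groups were not told apart.

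The makeup of the RUNX family was compared per length. Per kilobase of exon, RUNX2 made up 39.3 ± 2.6% of the summed RUNX1, RUNX2 and RUNX3 level in siEF, 16.0 ± 0.21% in siNEG and 12.1 ± 0.44% in Media. The difference between siEF and siNEG was 23.3 percentage points, with a two-sided exact permutation P of 0.1, which is the smallest that 3 against 3 libraries can give. The summed RUNX level itself was 12.04 ± 0.12 CPM per kilobase in siEF and 6.45 ± 0.14 in siNEG, a ratio of 1.87. RUNX3 was still the more abundant of the pair per length, at 7.31 CPM per kilobase against 4.73 for RUNX2 in siEF.

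CBFB, the common partner (ENSG00000067955.15, chromosome 16, 67028984 to 67101058, plus strand), was not called. It was at 121 ± 2.15 CPM in siEF, 126 ± 4.44 CPM in siNEG and 133 ± 4.04 CPM in Media. The siEF and siNEG libraries overlapped, and the log2 fold change was -0.06 (SE 0.04, adjusted P = 0.23), a sign that turned positive with upper quartile scaling. Per length, CBFB stood at the 91.6th percentile of tested genes in siEF and at the 90.6th in siNEG. With the RUNX sum higher and CBFB near its control level, the per-length ratio of CBFB to the RUNX sum was between 2.13 and 2.20 in siEF, between 4.11 and 4.31 in siNEG and between 3.85 and 4.39 in Media. The siEF range lay below both control ranges, and CBFB transcript exceeded the RUNX sum in all 9 libraries.

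**Figure D2:**
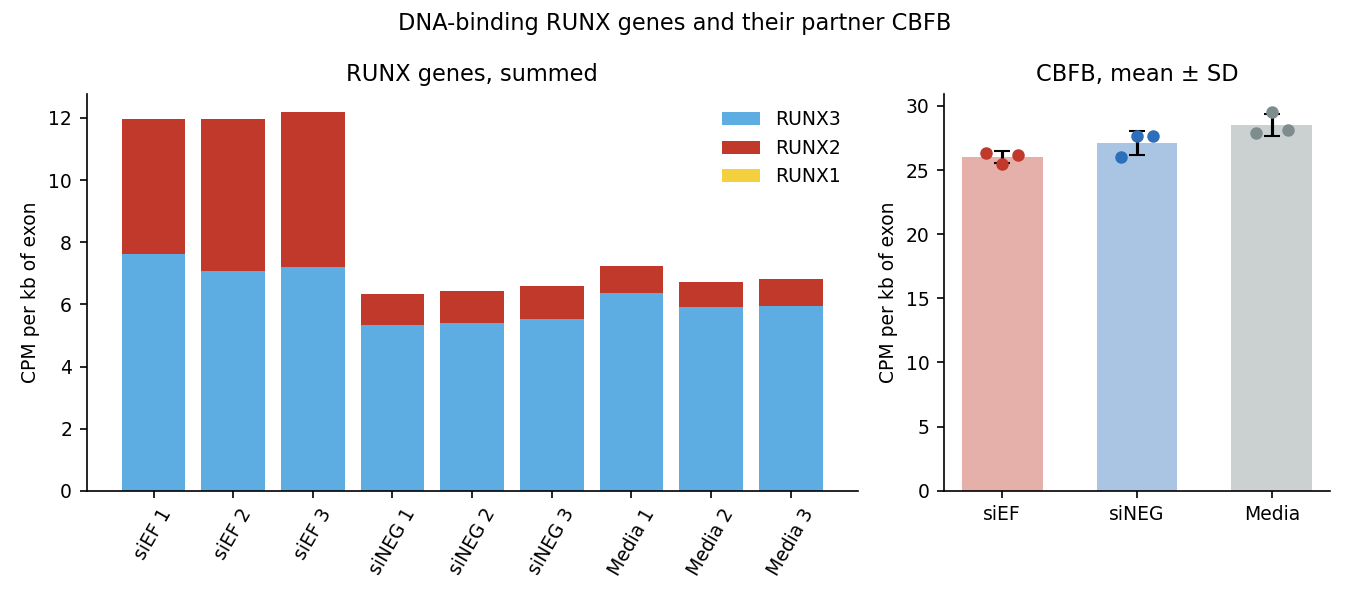
The left panel stacks the levels of RUNX3, RUNX2 and RUNX1 in each library, in CPM per kilobase of exon, and the right panel shows CBFB on the same scale as mean ± SD of 3 libraries with each library as a point. The stacks reach 12.04 on average in siEF against 6.45 in siNEG, mostly through RUNX2, while CBFB stays between 25.5 and 29.5 in all libraries.

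The RefSeq promoter table (GRCh38.p14) held 8 windows for 6 of the 10 genes, each covering 250 bases before and 50 after a transcription start, with no entry for CBFB, SOX9, SP7 and DLX5. They were searched on both strands for TGTGGT, the core of the RUNX motif. This core occurs at least once in 13.1% of the 35116 windows of all genes. The upstream RUNX2 window held 4 matches, a number reached by 5 windows of all 35116 (0.0142%), and the upstream RUNX3 window held 2, as in 1.31% of windows. The downstream windows of RUNX2 and RUNX3 and those of RUNX1, SOX5, MSX1 and MSX2 held none. All 6 matches lie on the strand opposite to the gene, so they read ACCACA in the gene's direction. Stretches from these windows are shown because they carry the core in the promoters of the family itself, with each match in capitals, 5′ to 3′ on the gene's strand.
RUNX2, chr6:45328080-45328156, plus strand: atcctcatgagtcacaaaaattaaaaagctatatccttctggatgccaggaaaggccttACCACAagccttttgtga
RUNX2, chr6:45328231-45328260, plus strand: gtgaggtcacaaACCACAtgattctgcctc
RUNX3, chr1:24965122-24965260, minus strand: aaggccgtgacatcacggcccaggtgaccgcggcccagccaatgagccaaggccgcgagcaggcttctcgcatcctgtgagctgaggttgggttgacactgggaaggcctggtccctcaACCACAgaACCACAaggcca
The remaining RUNX2 matches lie 16 and 24 bases after the start. A match in letters is a description of the window and says nothing of binding in these cells. GGAAGGAA, searched in the same way, was in none of the 8 windows and in 3.67% of all windows.

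SUPT3H, which encodes a subunit of the SAGA coactivator complex, is transcribed antisense through the RUNX2 locus. It was at 13.8 CPM in siEF, 10.8 CPM in siNEG and 9.56 CPM in Media, with a log2 change of 0.34 (SE 0.08, adjusted P = 0.00141) that did not reach the fold cut-off. The count ratio of RUNX2 to SUPT3H was between 2.65 and 2.96 in siEF, between 0.736 and 0.848 in siNEG and between 0.652 and 0.777 in Media. Whether the counting used strand was not given in the sources used here, so reads from exons that overlap in antisense could have gone to either gene. AL096865.1, another antisense RNA over RUNX2, had at most 24 counts in a library, and RUNX2-AS1 had 0 counts in all 9.

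SP7, the zinc finger factor that acts after RUNX2 in osteoblasts (ENSG00000170374.6, chromosome 12, 53326575 to 53345315, minus strand), was at the limit of detection in every group. It had 0, 3 and 1 counts in siEF, 0, 0 and 1 in siNEG and 0 in each Media library. The summed count of 4 in siEF has an exact Poisson 95% interval of 1.09 to 10.2 and that of 1 in siNEG an interval of 0.0253 to 5.57. The 0 counts in Media allow up to 3.69. RUNX2 rose in siEF while SP7 stayed at 3 counts or fewer in every library.

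The genes that osteoblasts use were split. Of 17 listed osteoblast genes, 7 were tested, of which 4 rose, 1 fell and 2 were not called. The share called was 71.4%, beside 28.8% of all tested genes, and the median log2 change was 1.24, beside 0.05. Among the rises, OMD passed the filter only through siEF, and among the 6 others 3 rose, with a median of 1.19. The untested genes were too low in all groups, so these counts describe the tested genes and not the list. OMD, which encodes osteomodulin, a keratan sulphate proteoglycan of bone, had between 36 and 54 counts in siEF and 0 in each siNEG library, so siEF was at least 19.3-fold higher when each siNEG library is set to a floor of 3 counts. COL1A1, the main chain of type I collagen, rose from 15.2 ± 1.43 CPM in siNEG to 341 ± 11.2 CPM in siEF, a log2 change of 4.49 (SE 0.06, adjusted P = 7.39e-18). CDH11 and ALPL, cadherin-11 and the tissue-nonspecific alkaline phosphatase, were the other 2 that rose, named after their values were seen, and ALPL lost its call in the test against the cut-off and was not called against Media (log2 fold change 0.91). PHOSPHO1, the phosphatase that starts mineral deposition, fell from 33.2 ± 0.94 CPM to 2.79 ± 0.61 CPM, a log2 change of -3.60 (SE 0.11, adjusted P = 4.65e-14). SPARC and PHEX, the 2 not called, were named after their values were seen. SPARC went from 927 ± 7.89 CPM in siNEG to 468 ± 12.2 CPM in siEF (log2 fold change -0.99, SE 0.04, adjusted P = 2.12e-12). It was called lower with no filter, without siEF replicate 3, without siNEG replicate 1 and by DESeq2. PHEX had a log2 change of 1.14 (adjusted P = 0.0153) and was called higher against Media (1.66).

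The partner chain of COL1A1, COL1A2, stayed low. It had between 1 and 9 counts in siEF and 0 in each siNEG library, and was not tested. Several other listed osteoblast genes stayed at or near 0. IBSP, DMP1 and TNFSF11 had 0 counts in all 9 libraries, and SPP1, the gene for osteopontin, had 1 count in all libraries together. CNN1, which encodes calponin and which the study places, with SPP1, among loci where the fusion and RUNX2 have adjoining sites, had between 102 and 185 counts in siEF and between 2 and 13 in siNEG. The ratio after scaling was 22.9, with an exact 95% counting interval of 15.2 to 36.1, and CNN1 passed the filter only through siEF.

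SOX9 (ENSG00000125398.8, chromosome 17, 72121020 to 72126416, plus strand) showed the largest fold change of the 8 tested genes. It had 4554, 3005 and 4851 counts in siEF, 312, 404 and 327 in siNEG and 408, 366 and 361 in Media. No siEF library came near a control library, and the controls overlapped each other. Levels were 159 ± 10.6 CPM in siEF, 10.75 ± 1.05 CPM in siNEG and 12.5 ± 0.86 CPM in Media. The log2 fold change was 3.89 (SE 0.08, adjusted P = 3.19e-16), the place 358 from the top among all tested genes. Per length, SOX9 went from the 47.5th percentile of tested genes in siNEG to the 94.9th in siEF, and from 2.73 to 40.5 CPM per kilobase of exon.

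SOX5 (ENSG00000134532.18, chromosome 12, 23529504 to 24562544, minus strand), which lacks a transactivation domain and helps SOX9 on cartilage enhancers, rose as well. It had 613, 472 and 709 counts in siEF, 210, 201 and 193 in siNEG and 126, 170 and 188 in Media. The log2 fold change was 1.89 (SE 0.12, adjusted P = 3.74e-10), from 6.25 ± 0.36 CPM to 23.2 ± 1.08 CPM, with siEF above all controls. Its close paralog SOX6, the usual partner of SOX5, was not called, at 70.5 ± 1.33 CPM in siNEG and 45.1 ± 2.28 CPM in siEF (log2 fold change -0.64, SE 0.06, adjusted P = 6.81e-08). SOX6 was at 97.2 ± 7.11 CPM in Media, so that siNEG was already lower (log2 fold change -0.46, adjusted P = 3.95e-05), and against Media it was called lower in siEF (-1.11, adjusted P = 5.79e-11). The count ratio of SOX5 to SOX6 was thus between 0.464 and 0.554 in siEF, between 0.0823 and 0.0955 in siNEG and between 0.0462 and 0.0645 in Media. SOX6 remained the more counted gene of the pair in all 9 libraries, without scaling for length. Per kilobase of exon, SOX5 was at 2.05 and SOX6 at 2.25 CPM in siEF, and at 0.55 and 3.51 CPM in siNEG.

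Cartilage matrix genes were mostly too low to test. Of 16 listed, 5 were tested, of which 3 rose, none fell and 2 were not called, with a median log2 change of 1.65. The share called was 60%, beside 28.8% of all tested genes. Of the 2 cartilage genes not called, MATN3 passed the filter only through siEF. COL9A3, a chain of type IX collagen, rose from 8.46 ± 0.57 CPM to 29.0 ± 1.92 CPM, a log2 change of 1.78 (SE 0.08, adjusted P = 5.07e-12). COL11A2 rose from 0.595 ± 0.16 CPM to 2.02 ± 0.69 CPM, a log2 change of 1.77 (SE 0.38, adjusted P = 0.000536), a call it lost in the test against the cut-off. COL11A1, the remaining gene that rose, was named after its values were seen. It went from 157 ± 6.64 to 491 ± 18.8 CPM, and its log2 fold change of siNEG against Media was 0.71 (adjusted P = 4.68e-08). The defining cartilage genes stayed low: COL2A1 was at 0.246 ± 0.14 CPM in siEF and 0.146 ± 0.05 CPM in siNEG with overlap, ACAN had 0 counts in every siEF and siNEG library, and MATN1, the only one of the 4 that was tested, had a log2 change of 0.52 (SE 0.41, adjusted P = 0.264).

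MSX2 (ENSG00000120149.9, chromosome 5, 174724582 to 174730896, plus strand), a homeobox repressor of the growing skull, rose, and its paralog MSX1 did not. MSX2 had 415, 314 and 481 counts in siEF, 91, 131 and 132 in siNEG and 129, 120 and 113 in Media. The siEF libraries were above all 6 controls, at 15.6 ± 0.77 CPM against 3.66 ± 0.70 CPM in siNEG, and the log2 fold change was 2.09 (SE 0.13, adjusted P = 2.16e-10). MSX1 (ENSG00000163132.8, chromosome 4, 4859665 to 4863936, plus strand) had 334, 304 and 321 counts in siEF, 487, 600 and 477 in siNEG and 555, 457 and 404 in Media. Its scaled levels, between 11.0 and 14.9 CPM in siEF and between 15.3 and 17.7 CPM in siNEG, did not overlap, and its log2 change of -0.36 (SE 0.12, adjusted P = 0.0112) passed neither threshold. MSX1 in siEF did overlap with Media, which ranged from 14.1 to 18.1 CPM.

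DLX5 (ENSG00000105880.7, chromosome 7, 97020396 to 97024950, minus strand), a homeobox activator known to act on RUNX2 in osteoblasts, was the tested gene of the 10 that fell. It had 226, 169 and 225 counts in siEF, 1936, 2030 and 1748 in siNEG and 2276, 1975 and 1923 in Media. All siEF libraries lay far below the controls, at 8.05 ± 0.30 CPM against 59.0 ± 2.66 CPM in siNEG and 68.05 ± 5.88 CPM in Media. The log2 fold change was -2.88 (SE 0.08, adjusted P = 1.20e-14), the place 116 from the bottom among the 16093 genes. Per length, DLX5 dropped from the 92.8th percentile of tested genes in siNEG to the 57.9th in siEF.

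DLX6, the gene that lies beside DLX5 in the opposite direction and shares enhancers with it, was not called. DLX6 was at 8.27 ± 0.61 CPM in siEF and 9.93 ± 1.24 CPM in siNEG, with a log2 change of -0.27 (SE 0.11, adjusted P = 0.0366) and overlapping groups. The count ratio of DLX5 to DLX6 was between 0.923 and 1.02 in siEF, between 5.25 and 7.20 in siNEG and between 5.86 and 6.35 in Media. Per kilobase of exon, DLX5 was at 4.62 and DLX6 at 2.40 CPM in siEF, and at 33.8 and 2.88 CPM in siNEG. DLX6-AS1 had a log2 change of -0.33 (SE 0.28, adjusted P = 0.308), and SDHAF3, an assembly factor of succinate dehydrogenase in the same window of 100 kb, fell by 1.58 on the log2 scale (SE 0.12, adjusted P = 6.45e-09). The ratio of DLX5 to MSX2, factors known to compete for the same homeobox sites, was between 13.2 and 21.3 in siNEG and between 16.5 and 17.6 in Media, and between 0.468 and 0.545 in siEF. DLX5 was thus counted more often than MSX2 in all 6 control libraries and less often in all 3 siEF libraries.

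**Figure D3:**
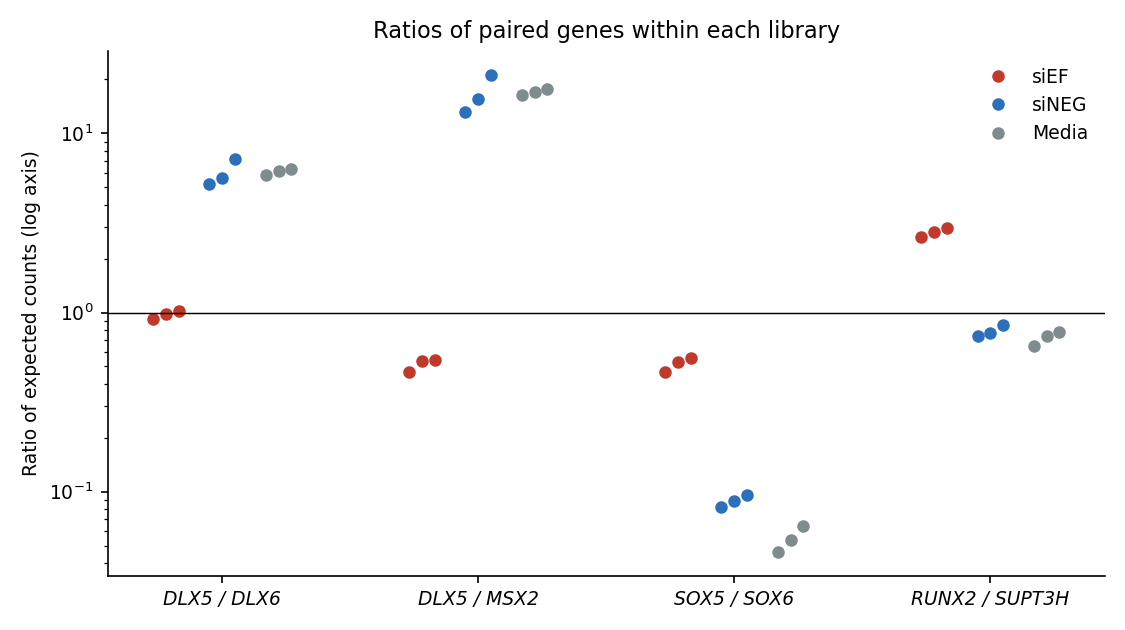
Ratio of the expected counts of paired genes within each library, on a log axis, with the 3 libraries of a group ordered by value (siEF red, siNEG blue, Media grey) and a line at equal counts. DLX5 over DLX6 and DLX5 over MSX2 are lower in siEF than in both control groups, and SOX5 over SOX6 and RUNX2 over SUPT3H are higher.

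Tandem GGAA runs near the genes were read from the genome (hg38) as stretches of at least 4 perfect copies on either strand. Of the 10 genes, 7 had a run within 100 kb of their 5′ end, beside 54.4% of the 16026 tested genes that have a position. The 7 include RUNX1, which was not tested. The nearest run to RUNX2 had 6 copies and lay inside a RUNX2 intron, 71665 bp downstream of the 5′ end. That of SOX9 had 4 copies and lay 26190 bp downstream, in an intron of genes that include SOX9-AS1, and that of MSX2 had 8 copies and lay 18827 bp downstream, outside any annotated gene. DLX5 had none within 100 kb, and its nearest run of 4 copies lay 104654 bp downstream. These runs are shown for the genes that changed most, with 30 bases on each side, on the strand that reads GGAA. Only the copies of the perfect run are in capitals. Other GGAA copies in the flanks stay in lower case and were not counted in the run.
RUNX2, chr6:45399792-45399875, plus strand: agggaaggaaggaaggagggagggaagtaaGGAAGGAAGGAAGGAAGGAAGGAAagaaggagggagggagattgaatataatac
SOX9, chr17:72147180-72147255, plus strand: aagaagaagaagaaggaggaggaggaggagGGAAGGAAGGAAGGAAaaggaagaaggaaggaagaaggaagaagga
MSX2, chr5:174743379-174743470, minus strand: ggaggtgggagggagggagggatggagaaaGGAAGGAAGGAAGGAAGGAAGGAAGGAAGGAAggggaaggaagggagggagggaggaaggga
DLX5, chr7:96920251-96920326, minus strand: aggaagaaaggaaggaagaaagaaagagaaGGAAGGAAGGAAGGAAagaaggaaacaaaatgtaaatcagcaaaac
RUNX3, which was not called, had the longest nearest run of the 7, with 12 copies 10042 bp upstream, and CBFB had 6 copies 7960 bp upstream. SOX5, which rose, had 4 copies 80837 bp upstream. Binding of EWS::FLI1 at these runs was not analysed here.

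Media served as the control for the nonspecific siRNA. Between siNEG and Media, none of the 8 tested genes was called by edgeR or by DESeq2, beside 0.429% of all tested genes called by edgeR, and 4 of the 8 had an unadjusted P under 0.05 by either tool, as did 30.3% of all tested genes by edgeR. The 4 were RUNX2, RUNX3, SOX9 and DLX5. The largest of these differences was that of RUNX2, with a log2 change of 0.30 (SE 0.09, adjusted P = 0.0295), followed by SOX9 with -0.22 (SE 0.09, adjusted P = 0.103), DLX5 with -0.21 (SE 0.06, adjusted P = 0.0376) and RUNX3 with -0.17 (SE 0.06, adjusted P = 0.0611). The siNEG and Media libraries of RUNX2, RUNX3, CBFB and DLX5 did not overlap, as for 32.7% of all tested genes, with siNEG above Media for RUNX2 and below it for RUNX3, CBFB and DLX5, and none of these passed the P threshold.

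Against Media, 29.9% of all tested genes were called in siEF, and the siEF libraries are the same as in the comparison with siNEG. SOX9, RUNX2, SOX5, MSX2 and DLX5 were the called genes here too, with log2 changes of 3.67, 2.49, 2.12, 1.97 and -3.08. RUNX3 had 0.27 (adjusted P = 0.00072), CBFB -0.13 (adjusted P = 0.0138) and MSX1 -0.31 (adjusted P = 0.0259). The values for RUNX2 and DLX5 were farther from 0 against Media than against siNEG, and those for SOX9 and RUNX3 closer to 0, by the differences between siNEG and Media given above.

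**Figure D4:**
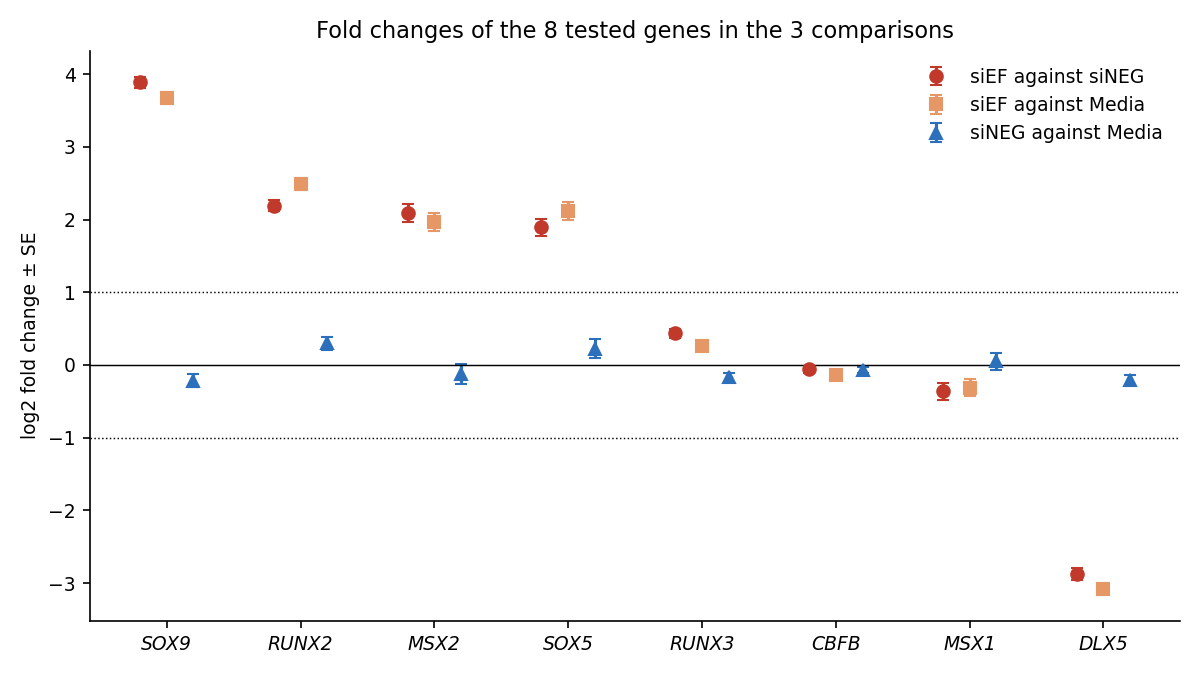
Log2 fold change ± SE from edgeR's fit for the 8 tested genes in the 3 comparisons (siEF against siNEG, red circles; siEF against Media, orange squares; siNEG against Media, blue triangles), with dotted lines at the fold cut-off of 1 in either direction. SOX9, RUNX2, MSX2 and SOX5 lie above and DLX5 below the dotted lines in both comparisons of siEF, and all blue triangles lie between -0.22 and 0.30.

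The order of the 10 genes by level per kilobase of exon was the same in siNEG and Media. DLX5 led at 33.8 ± 1.53 CPM per kilobase in siNEG, followed by CBFB, MSX1, RUNX3, SOX9, MSX2, RUNX2, SOX5, RUNX1 and SP7, and RUNX1 and SP7 were the only neighbours in that order whose siNEG libraries overlapped. In siEF, SOX9 led at 40.5 ± 2.69 CPM per kilobase, and CBFB came next at 26.0 ± 0.46. RUNX3, MSX2 and MSX1 followed between 5.97 and 7.31 on average, where RUNX3 overlapped MSX2 and MSX2 overlapped MSX1. RUNX2 and DLX5 overlapped at 4.73 and 4.62, and SOX5 at 2.05 stood apart above SP7 and RUNX1.

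Several other transcription factors of the limb, bone and cartilage rose. Of 20 reported, 18 were tested, of which 8 rose and 10 were not called, with a median log2 change of 0.79. The share called was 44.4%, beside 28.8% of all tested genes. The counts of this list leave out a gene whose values had been seen. Without MEF2C, which passed the filter only through siEF, 7 of 17 rose and the median was 0.71. MEF2C, a factor of muscle and of the growth plate, had between 35 and 60 counts in siEF and between 0 and 3 in siNEG, a ratio of 34.8 after scaling with an exact 95% counting interval of 14.6 to 109. FOXC2, a forkhead factor of mesenchyme, had between 94 and 152 counts in siEF and between 1 and 9 in siNEG, and its level in siNEG was below that in Media (log2 fold change -2.27, adjusted P = 0.00166), the sole call between the controls among those reported.

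Among 17 cofactors and binding partners of RUNX proteins, 16 were tested, of which 5 rose, none fell and 11 were not called, with a median log2 change of 0.52 beside 0.05 over all tested genes. The share called was 31.2%, near the 28.8% of all tested genes. TLE4, a Groucho corepressor that RUNX proteins recruit, rose from 6.26 ± 0.29 CPM to 48.5 ± 1.80 CPM, a log2 change of 2.95 (SE 0.09, adjusted P = 2.92e-14). RUNX1T1, the corepressor also known as ETO, rose from 0.458 ± 0.10 CPM to 3.07 ± 0.76 CPM, a log2 change of 2.74 (SE 0.32, adjusted P = 7.64e-07). TLE1, HDAC5 and ETS1 were the other genes that rose, named after their values were seen. ETS1, whose protein binds DNA together with RUNX proteins, went from 14.9 to 43.05 CPM on average.

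Among 13 paralogs of the DLX, SOX and SP factors, 7 were tested, of which 2 rose and 5 were not called, with a median log2 change of -0.13. The share called, 28.6%, was close to that of all tested genes (28.8%), so the count says nothing particular to the paralogs. DLX4 rose from 1.99 ± 0.32 CPM to 8.01 ± 0.75 CPM (log2 fold change 2.0, SE 0.16, adjusted P = 1.05e-08). DLX4 in siNEG was below Media (log2 fold change -0.73, adjusted P = 0.00753), and its rise against Media was 1.27. SOX13 rose by a log2 change of 1.03 (SE 0.08, adjusted P = 3.41e-09) and was not called against Media (0.80). The call of SOX13 ended in 4 of 17 alternative settings, including without siEF replicate 2 and without siNEG replicate 3, where its log2 fold change was at the lowest 0.97. Of the DLX genes tested against siNEG, DLX5 was thus the one called lower and DLX4 the one called higher, and DLX1, DLX2, DLX3 and DLX6 were not called.

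The BMP pathway, which acts upstream of MSX and DLX genes, was mixed. Of 13 listed genes, 11 were tested, of which 4 rose, 2 fell and 5 were not called, with a median log2 change of -0.07. The share called was 54.5%, beside 28.8% of all tested genes. SMAD7, an inhibitor of the pathway, rose from 7.46 ± 0.57 CPM to 25.2 ± 0.84 CPM (log2 fold change 1.76, SE 0.08, adjusted P = 9.50e-12). ID1 rose from 7.87 ± 1.46 CPM to 23.4 ± 1.80 CPM, while ID2 of the same family fell from 231 ± 5.03 CPM to 61.1 ± 4.17 CPM, with log2 changes of 1.56 (SE 0.11, adjusted P = 1.33e-09) and -1.92 (SE 0.05, adjusted P = 5.26e-15). GREM1, a BMP antagonist, fell by 1.37 on the log2 scale (SE 0.33, adjusted P = 0.00149), a call it lost in the test against the cut-off. The rises of BAMBI and ID3, named after their values were seen, were near the cut-off, with log2 changes of 1.06 and 1.03. The call of BAMBI ended in the test against the cut-off, and that of ID3 in 4 of 17 alternative settings, among them without siEF replicate 2 and without siNEG replicate 1, and against Media (0.71). BMP2, at -0.96, was called lower without siEF replicate 2, without siNEG replicate 1 or without siNEG replicate 2, where it was at the lowest -1.05. NOG, a BMP antagonist named after its values were seen, had a log2 change of -0.998 (adjusted P = 0.0263). It was called lower without siEF replicate 3 and against Media (-1.85). MSX2 rose in the same libraries in which SMAD7, ID1, BAMBI and ID3 rose, MSX1 was not called and ID2 fell. The study lists ID2 among loci where the fusion and E2F have adjoining sites. The part of BMP signalling in these changes was not tested.

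**Figure D5:**
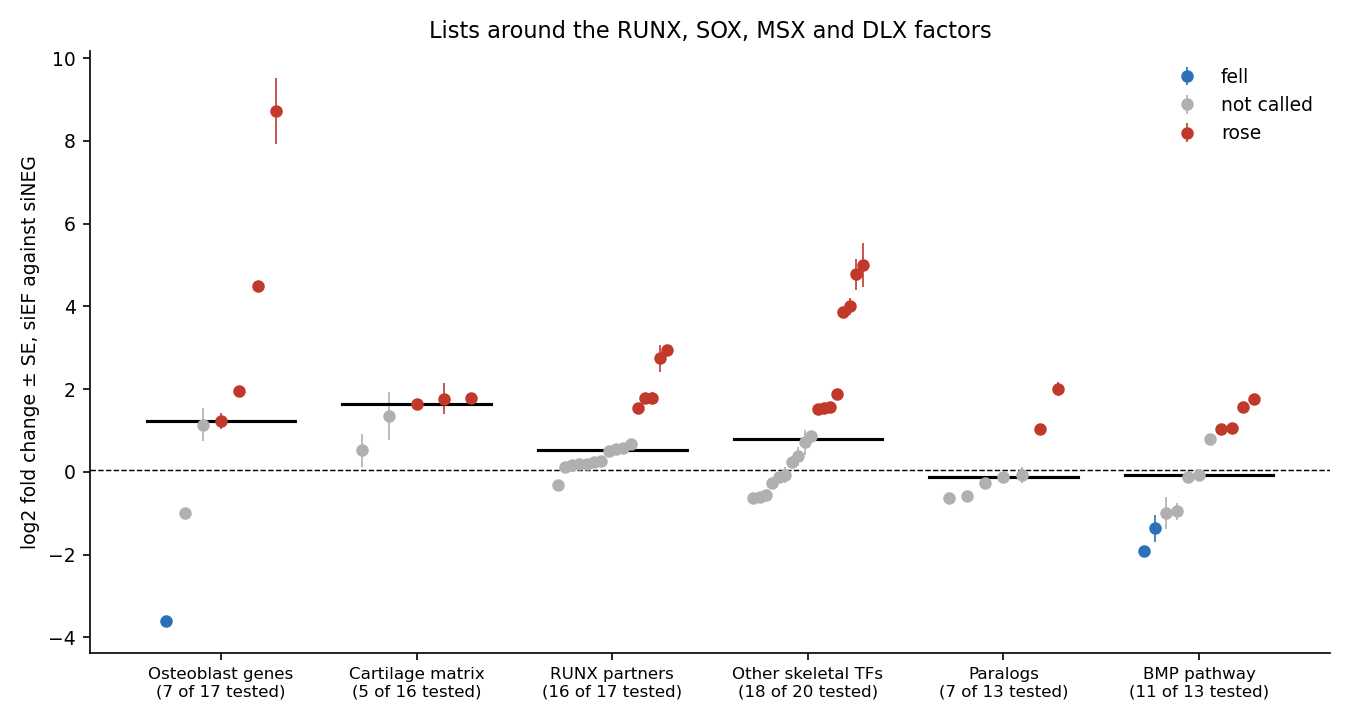
Log2 fold change ± SE of the reported genes that were tested in 6 lists, siEF against siNEG, in order of value within a list (red, rose; blue, fell; grey, not called), with a solid bar at each list's median and a dashed line at the median of all tested genes. The medians run from -0.13 for the paralogs to 1.65 for the cartilage matrix genes, of which 5 of 16 were tested.

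Tested genes outside the set described here were compared with RUNX2 and SOX9 by their pattern over the 9 libraries. Those most like RUNX2 were SPOCD1, TRAF3IP2 and DECR1, with Pearson's r on log2(CPM + 0.5) of 0.9994, 0.9990 and 0.9988, and 528 genes had an r over 0.99. Those most like SOX9 were RHOBTB1, DNMT3A and EHD2, at 0.9994, 0.9993 and 0.9992, with 672 genes over 0.99. The points share their libraries and fall into siEF on one side and the controls on the other, and r was not computed within either side. The sizes of the differences varied: DNMT3A had a log2 change of 0.91 and was not called, while EHD2 had 3.87 beside 3.89 for SOX9.

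Neighbouring genes that started within 100 kb of a gene or overlapped it gave the local background. RUNX3, SOX5, MSX1 and MSX2 had no tested neighbour, and RUNX1 had 2, neither of them called. SOX9 had 1, LINC01152, a noncoding RNA with at most 19 counts in a library, which passed the filter only through siEF. It had 18, 18 and 19 counts in siEF against 3, 3 and 0 in siNEG, a ratio of 11.5 after scaling with an exact 95% counting interval of 4.95 to 32.6. CBFB, itself not called, had 14 tested neighbours, of which 3 rose (CES3, B3GNT9 and HSF4) and none fell, beside 17.1% of all tested genes called higher. B3GNT9 was at 17.8 CPM in siEF, 5.13 in siNEG and 10.2 in Media, with siNEG below Media (log2 fold change -0.98, adjusted P = 2.25e-05). SP7 had 9 tested neighbours, of which RARG rose and ESPL1 fell. RARG, the retinoic acid receptor gamma gene, rose from 39.05 to 91.9 CPM on average (log2 fold change 1.23, SE 0.07, adjusted P = 1.56e-10), at a locus where SP7 itself stayed at the limit of detection.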

How the data were processed

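TC32 RNA was sequenced in 9 libraries (3 groups of 3 biological replicates, taken from the sample labels, 30 h). According to the methods, the authors mapped reads to hg38 with STAR, estimated expression with RSEM and called targets with DESeq2. The processing notes also name FastQC and cutadapt 2.10. The deposited unit is the expected count per gene and library, neither depth-scaled nor pooled. The annotation release and strand setting are not given in the sources used here. All value columns were used.

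edgeR 4.0.16 in R 4.3.3 tested the rounded counts by quasi-likelihood, in 1 fit over all libraries, after filterByExpr (16093 of 60603 genes, each at 0.33 CPM or more in at least 3 libraries) and TMM scaling, with Benjamini-Hochberg adjustment over all tested genes. A gene passed only through siEF where fewer than 3 of the 6 control libraries met that minimum. A called gene passed both cut-offs of the study (adjusted P 0.01, log2 fold change 1 in either direction). The SE was taken as |log2 fold change| over the square root of F. CPM uses TMM-scaled library sizes. Levels between genes are CPM per kilobase of exon (GENCODE 44 on GRCh38, which held 99.5% of identifiers). Count ratios of paired genes are not scaled for length. The test was checked on simulated data.

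Replicates of a group differed by more than sampling noise (chi-square per degree of freedom 3.57 to 23.2 over genes with at least 20 counts in a pair), and no columns were identical. Nothing in the labels ties replicate numbers across groups. With 3 libraries per group, the exact permutation test cannot go below 0.1. Intervals of counts are exact Poisson or binomial 95% intervals (scipy 1.17.1) and cover counting error only.

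The members and lists were chosen with earlier results of these data known. A gene listed among the other skeletal transcription factors is not reported here and was left out of that list's counts and median after its values were seen. Named were all members, per list the 2 largest rises and falls among called genes and the defining markers, neighbours within 100 kb, and the 3 non-member genes with the highest Pearson's r to RUNX2 and SOX9. Alternatives were another tool (DESeq2 1.42.0), upper quartile or RLE scaling, no filter, a filter of 10 counts in all libraries, a fit of just the 6 libraries compared, a replicate block, a test against the cut-off (glmTreat) and each library left out in turn. Promoter sequences are from RefSeq (GRCh38.p14), and genome sequence is from hg38.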

Additional observations from a re-analysis of the deposited data

How the results depend on the processing

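SOX9, RUNX2, MSX2, SOX5 and DLX5 were called against siNEG under all 17 alternatives, and RUNX3, CBFB and MSX1 under none. Over these alternatives the log2 fold change ranged from 3.80 to 3.98 for SOX9, from 2.14 to 2.28 for RUNX2, from 1.92 to 2.20 for MSX2, from 1.85 to 1.98 for SOX5, from -2.92 to -2.79 for DLX5, from 0.39 to 0.52 for RUNX3 and from -0.49 to -0.27 for MSX1. CBFB changed sign with upper quartile scaling (0.0259), which moved the median of all tested genes by 0.09. The number of genes called fell from 4639 to 2929 in the test against the cut-off, which by its construction tests for a log2 fold change beyond 1. Without 1 library the number ranged from 4434 to 4754. Unscaled for gene length, the RUNX2 share differed by 27.8 percentage points in place of 23.3, and without 1 library by between 22.5 and 24.8 points. RUNX1 and SP7 entered only 2 settings and were called in neither. Same-numbered libraries of different groups did not deviate together (r between -0.09 and 0.05), so the numbers were not taken as pairs. With a replicate block, 5 of the 8 genes were called as before, 4561 genes were called in all, and SOX9 had a log2 fold change of 3.89. Counts of 1 to 9 summed over a group, as for RUNX1 and SP7, limit what depth can show.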
